A study of Mus musculus with 9 samples.

Results

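The genes described here are myocilin and its relatives in the olfactomedin family. The family was taken as the 8 mouse genes Myoc, Olfm1, Olfm2, Olfm3, Olfml1, Olfml2a, Olfml2b and Olfml3, located by Ensembl identifier among the 55704 genes of the deposited expression table. They were selected on their FPKM in these same 3 groups, so their levels and differences are given as a description, without p-values. All 8 had a mean FPKM (fragments scaled by gene length and by the size of the library) of at least 0.1 over the 9 libraries, the filter used for the fits across all genes.

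RNA was measured by bulk RNA-seq in cultures of neural stem cells (NSCs) from the subventricular zone (SVZ) of C57BL/6 mice aged 8 to 9 weeks, with 2 female and 2 male mice in each isolation. After several passages the cells were plated on poly-L-ornithine and laminin in proliferation medium with bFGF and EGF for 16 to 18 h. The 3 bFGF/EGF libraries were taken at day 0. For the other groups the medium was then changed for 6 days to one with bFGF and BMP4 (3 bFGF/BMP4 libraries) or with BMP4 and no other growth factor (3 BMP4 libraries), each factor at 20 ng/mL. All 3 media were DMEM/F12 with 2% B27, without vitamin A in the proliferation medium, while the label of the other media names only B27. A difference between either day 6 group and the bFGF/EGF group therefore cannot be told apart from 6 days of culture or from the change of supplement, whereas the 2 BMP4-containing media differed in bFGF. Whether libraries of a group came from separate isolations is not given in the sources used here, so the spread between them may be technical. In bulk RNA a lower level cannot be told apart from fewer cells of one kind.

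Olfactomedin-family proteins are mostly secreted glycoproteins that share a carboxy-terminal olfactomedin domain, a propeller-shaped fold that binds other extracellular or membrane proteins. Myocilin is known best from the eye, where mutant forms that misfold in the trabecular meshwork cause open-angle glaucoma, and it is also made by some astrocytes. Its noelin relatives Olfm1, Olfm2 and Olfm3 belong to neurons and to neural development, and the olfactomedin-like proteins Olfml1, Olfml2a, Olfml2b and Olfml3 are matrix-associated proteins of many tissues.

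Myoc and Olfml1 were the members with the largest rise in fitted level from the bFGF/BMP4 to the BMP4 libraries, and the 250 bases before the annotated start of each are shown for that reason (genome build GRCm39, plus strand, 5′ to 3′, no exon of any annotated transcript inside the window). Capitals mark the letters TATAAA (known as the TATA box) and CAGAC (known as the SMAD box), which were searched on both strands.
Myoc, chr1:162466468-162466717: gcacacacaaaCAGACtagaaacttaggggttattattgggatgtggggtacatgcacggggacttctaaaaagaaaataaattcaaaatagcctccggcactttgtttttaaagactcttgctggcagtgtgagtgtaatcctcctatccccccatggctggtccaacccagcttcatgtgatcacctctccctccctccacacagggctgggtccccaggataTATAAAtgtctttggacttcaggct
Olfml1, chr7:107166389-107166638: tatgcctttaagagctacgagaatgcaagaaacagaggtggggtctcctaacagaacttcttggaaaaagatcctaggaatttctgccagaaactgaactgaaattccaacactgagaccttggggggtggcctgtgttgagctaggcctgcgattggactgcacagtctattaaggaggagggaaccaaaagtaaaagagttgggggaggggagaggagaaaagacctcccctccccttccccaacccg
The Myoc window held TATAAA at position -25 and CAGAC at position -239, counted from the first base of the transcript, and its GC content was 47.2%. The Olfml1 window, with a GC content of 50%, held neither of these motifs, and neither window held GGCGCC (a GC-rich SMAD element), AGAACA (the core of a glucocorticoid receptor element) or TGANTCA (an AP-1 site). Among the windows of 21770 protein-coding genes, 11.9% held TATAAA, 41.3% CAGAC, 9.31% GGCGCC, 14.3% AGAACA and 6.17% TGANTCA, and the median GC content was 53.2%. These matches describe the letters in the windows and were not tested for a role.

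The libraries held 15892854 to 17419822 fragments on genes, as whole fragment numbers rebuilt from the FPKM values. Where all libraries of a group had 3 fragments or fewer, a gene is called not detected in that group, and folds against it are lower bounds, computed against 3 fragments per library and covering counting error only. Pearson's correlation of log2 levels across genes, which are not independent, was 0.950 to 0.964 within groups and 0.810 to 0.915 between groups. The 7 NSC markers were all measured, with summed FPKM of 1674 to 1770 (bFGF/EGF), 659 to 763 (bFGF/BMP4) and 1415 to 1879 (BMP4), of which Vim and Fabp7 made up the largest part, but they did not move together. Sox2 averaged 167, 137 and 137 FPKM with bFGF/EGF, bFGF/BMP4 and BMP4, whereas Nes fell from 151 to 3.55 FPKM (-5.38, limma adjusted p = 8.60e-08) and to 15.8 FPKM (-3.30, limma adjusted p = 1.17e-06). From bFGF/EGF to BMP4, 2 of the 7 rose (Pax6 and Prom1) and Nes alone fell, beside 21.3% and 15.4% of all genes tested. From bFGF/EGF to bFGF/BMP4, 1 rose (Pax6) and 4 fell (Nes, Vim, Fabp7 and Prom1), beside 16.5% and 14.1% of all genes. From bFGF/BMP4 to BMP4, 3 rose (Nes, Vim and Prom1) and none fell, beside 8.41% and 5.14% of all genes. These marker genes were named after their values were seen. Of the markers of other cells, 5 of 10 for fibroblasts and mural cells and 6 of 11 for microglia had at most 3 fragments in every library. The 9 oligodendrocyte lineage markers summed to 1564 to 2264 FPKM (bFGF/EGF), 1320 to 1802 (bFGF/BMP4) and 243 to 444 (BMP4). The 9 neuron markers summed to 79.4 to 95.8, 48.2 to 54.0 and 144 to 216 FPKM. From bFGF/BMP4 to BMP4, 4 of the 7 neuron markers tested rose and 1 fell, beside 8.41% and 5.14% of all genes. Of the 7 oligodendrocyte lineage markers tested, 1 rose and 2 fell. The part of these cells in the members' levels was not tested.

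Myoc (ENSMUSG00000026697, chromosome 1, 162466718 to 162477265, plus strand, 3 exons) went from not detected to one of the most abundant mRNAs. It had 0, 0 and 3 fragments in the bFGF/EGF libraries and 81, 38 and 30 in the bFGF/BMP4 libraries. In the BMP4 libraries it had 50646, 24486 and 22632 fragments. No 2 groups overlapped. In FPKM the bFGF/EGF libraries stood at 0, 0 and 0.0819, the bFGF/BMP4 libraries at 2.43, 1.19 and 0.983 and the BMP4 libraries at 1504, 729 and 662, so that Myoc ranked between 14 and 33 among all genes in the BMP4 libraries and between 9990 and 12584 in the bFGF/BMP4 libraries. It took 0.192% of all fragments on genes in the BMP4 libraries on average.

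The mean Myoc level was 965 ± 468 FPKM (SD, n = 3) with BMP4 and 1.54 ± 0.782 FPKM (SD, n = 3) with bFGF/BMP4, a ratio of means of 628. On the log2(FPKM + 0.1) scale, on which all fold changes below are given, the difference was 9.20 with a standard error of 0.40 from the limma fit. Among the 20207 genes tested, no gene had a larger log2 fold change between these groups on this scale. The next were C1ql1 at 9.12, C3 at 8.87, Pdyn at 7.25 and Gfap at 7.03. The lead of Myoc over C1ql1 and C3 was smaller than its standard error, so their order is not settled. C3 was not detected with bFGF/BMP4, so that its value and its place relative to Myoc depend on the pseudocount. Compared with the bFGF/EGF libraries, Myoc was at least 17.8-fold higher with bFGF/BMP4 and at least 11201-fold higher with BMP4, and in the latter comparison only Gfap, at 13.71 against 12.85 for Myoc, had a larger fitted log2 fold change.

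The BMP4 libraries differed among themselves. The level in BMP4 replicate 1 was 2.16 times the mean of replicates 2 and 3, and 7.90% of all genes tested lay at least as far from 0 in the log2 ratio of these libraries. Without BMP4 replicate 1 the log2 fold change over bFGF/BMP4 was 8.83, and the bound over bFGF/EGF was 8072. The opposite-strand gene Myocos shares 93 exonic bases with Myoc, and it had FPKM of 19.9, 7.07 and 13.3 in the BMP4 libraries and at most 0.117 in the others. With 106 to 221 Myoc fragments for each Myocos fragment in the BMP4 libraries, Myoc was far the more abundant of the pair. Whether the counting used strand is not given in the sources used here, so reads in the shared bases cannot be assigned to either gene. The same limit holds for Olfm1, Olfm2, Olfml2a and Olfml3, which also share exonic bases with annotated genes on the opposite strand.

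**Figure D1:**
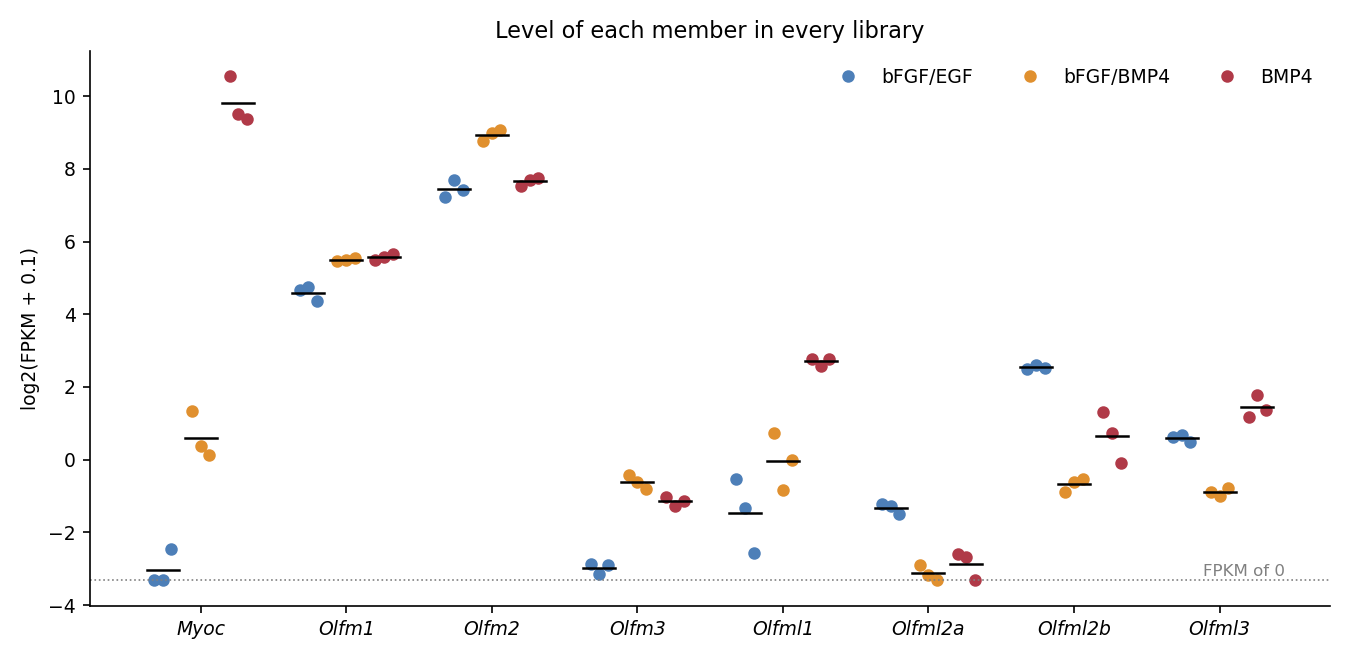
Level of each member in every library on a log2(FPKM + 0.1) axis, with 1 point per library, coloured by group, and a bar at the mean of the 3 log2 values. Myoc lies at or near an FPKM of 0 in the bFGF/EGF libraries and at 662 to 1504 FPKM in the BMP4 libraries, and Olfm2 is highest in the bFGF/BMP4 libraries.

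The summed level of the astrocyte markers was also highest with BMP4, though its members differed. The summed FPKM of the 9 astrocyte markers, all of them detected, was 232 to 302 in the bFGF/EGF, 1945 to 2361 in the bFGF/BMP4 and 4836 to 5635 in the BMP4 libraries. Of these, Gfap, the intermediate filament protein of astrocytes and of quiescent NSCs, averaged 0.0926, 19.4 and 2566 FPKM in the same order. From bFGF/BMP4 to BMP4, 5 of the 9 rose by limma with Benjamini-Hochberg adjustment (Gfap, Aqp4, Gja1, Aldoc and Aldh1l1) and 1 fell, the glutamate transporter Slc1a2 (-1.43, limma adjusted p = 0.000309). The other 3 did not pass, with log2 fold changes of -0.47 for S100b, -0.31 for Sparcl1 and -0.07 for Fgfr3. Of all genes tested, 8.41% rose and 5.14% fell in the same comparison. From bFGF/EGF, 7 astrocyte markers rose and 1 fell in each day 6 group, beside 16.5% and 14.1% of all genes (bFGF/BMP4) and 21.3% and 15.4% (BMP4). The one that fell was Aldh1l1 (-2.46 with bFGF/BMP4, limma adjusted p = 9.31e-07, and -1.21 with BMP4, limma adjusted p = 6.65e-05). Of 10 fibroblast and mural cell markers, 4 passed the filter. From bFGF/BMP4 to BMP4, 2 of them rose and the other 2 were not called, beside the 8.41% and 5.14% of all genes. Those that rose were Acta2, from 1.09 to 18.1 FPKM (limma adjusted p = 3.72e-05), and Pdgfrb, from 0.0707 to 0.385 FPKM (limma adjusted p = 0.0135). The summed FPKM of that list was 8.86 to 16.9 with bFGF/EGF, 1.59 to 2.67 with bFGF/BMP4 and 14.5 to 26.5 with BMP4. Acta2, which averaged 13.3 FPKM with bFGF/EGF, made up the largest part of it in each group. The astrocyte and mural genes named here apart from Gfap were chosen after their values were seen. The part of either list's cells in the Myoc level was not tested.

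By the root mean square difference of centred log2 levels over the 9 libraries, the genes whose pattern was most like that of Myoc were Gfap (1.35), C3 (1.82), Papss2 (1.89), Pdyn (1.92) and Padi2 (2.07). C3 is the central component of complement, Papss2 makes the sulfate donor used for proteoglycans, Pdyn encodes the precursor of dynorphin peptides and Padi2 encodes an enzyme that converts arginine to citrulline in proteins such as GFAP. These distances are wide, since a distance of 1 is a typical 2-fold difference in each library. Papss2 averaged 0.140, 1.26 and 93.1 FPKM and Padi2 averaged 0.153, 7.38 and 168 FPKM with bFGF/EGF, bFGF/BMP4 and BMP4. C3 was not detected in either group with bFGF and reached 32.5 to 109 FPKM with BMP4, with the highest value, like that of Myoc, in BMP4 replicate 1.

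**Figure D2:**
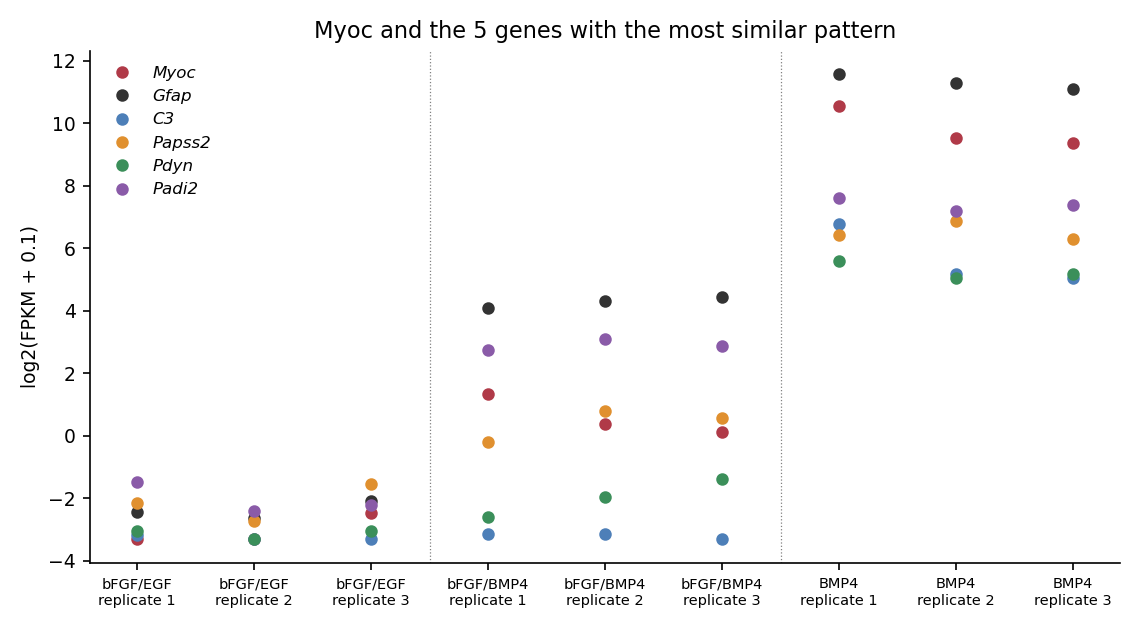
Levels of Myoc and of the 5 genes with the most similar pattern in each of the 9 libraries on a log2(FPKM + 0.1) axis, with dotted lines between the groups. All 6 genes are highest in the 3 BMP4 libraries, and Gfap lies above Myoc in the libraries of both day 6 groups.

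Among the noelins, Olfm2 (ENSMUSG00000032172, chromosome 9, 20578986 to 20657645, minus strand) was the most abundant member in both groups that received bFGF. Olfm2 is a secreted neuronal protein found with AMPA-type glutamate receptors. Its FPKM was 150, 208 and 172 in the bFGF/EGF, 432, 503 and 533 in the bFGF/BMP4 and 183, 208 and 215 in the BMP4 libraries. The bFGF/BMP4 libraries stood above all others, and the ranges of the other groups overlapped. The means were 177 ± 29.4, 489 ± 52.2 and 202 ± 16.6 FPKM (SD, n = 3 each), with log2 fold changes of 1.48 (bFGF/BMP4 over bFGF/EGF), 0.20 (BMP4 over bFGF/EGF) and -1.28 (BMP4 over bFGF/BMP4), each with a standard error of 0.16. Olfm2 thus fell by 1.28 on the log2 scale between the same groups between which Myoc was higher by 9.20.

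The makeup of the family's summed level differed between the groups. Olfm2 held 81.8% to 86.1% of the members' summed FPKM in the bFGF/EGF libraries and 89.8% to 91.4% in the bFGF/BMP4 libraries, but 10.5% to 22.9% in the BMP4 libraries, where its own level overlapped that with bFGF/EGF. Myoc held 70.6% to 86.2% in the BMP4 libraries and at most 0.506% in the others. The genes nearest to Olfm2 in pattern were Lrig1 (0.11), Rasl10b (0.14) and Slc35f3 (0.14). Lrig1, a membrane protein that dampens EGF receptor signaling, averaged 72.7, 209 and 75.1 FPKM.

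Olfm1 (ENSMUSG00000026833, chromosome 2, 28083004 to 28120748, plus strand), the secreted protein noelin that binds the Nogo receptor and AMPA-type receptors, was higher in both day 6 groups than at day 0. Its FPKM was 25.5, 26.9 and 20.5 in the bFGF/EGF, 43.7, 44.9 and 46.5 in the bFGF/BMP4 and 45.3, 47.8 and 50.7 in the BMP4 libraries. Both day 6 groups lay above all bFGF/EGF libraries and overlapped with each other. The log2 fold changes over bFGF/EGF were 0.90 and 0.99 and that between the day 6 groups was 0.09, each with a standard error of 0.12, so neither rise reached 2-fold. The nearest genes in pattern were Nipsnap2 (0.05), Rab3gap1 (0.09) and Dynll2 (0.10), the closest match found for any member.

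Olfm3 (ENSMUSG00000027965, chromosome 3, 114697712 to 114919372, plus strand), or optimedin, a noelin that can bind myocilin, was a rare transcript throughout. It had 3, 1 and 3 fragments in the bFGF/EGF libraries, where it was not detected, 51, 42 and 34 in the bFGF/BMP4 libraries and 31, 25 and 29 in the BMP4 libraries. It was at least 15.3-fold higher with bFGF/BMP4 and at least 9.72-fold higher with BMP4 than with bFGF/EGF. All bFGF/BMP4 libraries, at 0.468 to 0.643 FPKM, lay above the BMP4 libraries, at 0.313 to 0.387 FPKM, with a log2 fold change of -0.53 ± 0.30 (SE). Its nearest genes in pattern were Ddb2 (0.13), Ppm1k (0.17) and Zbtb4 (0.17), all of them lowest with bFGF/EGF and highest with bFGF/BMP4.

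Of the olfactomedin-like members, Olfml1 (ENSMUSG00000051041, chromosome 7, 107166639 to 107191750, plus strand), a secreted protein of little known function, had the same order of groups as Myoc at a far lower level. Its FPKM was 0.593, 0.300 and 0.0672 in the bFGF/EGF, 1.55, 0.464 and 0.888 in the bFGF/BMP4 and 6.69, 5.83 and 6.73 in the BMP4 libraries. All BMP4 libraries lay above all others, while the groups with bFGF overlapped. The log2 fold change of the BMP4 libraries was 4.18 over bFGF/EGF and 2.74 over bFGF/BMP4, each with a standard error of 0.51. The bFGF/EGF values rest on 17, 8 and 2 fragments. The nearest genes in pattern were Txnip (0.43), Vit (0.44) and Gm41349 (0.48), of which Txnip encodes an inhibitor of thioredoxin and of glucose uptake and Vit a matrix protein. The gene length that follows from the Olfml1 values differed by -46.8% from its exon length in GENCODE vM39, so its FPKM may rest on another gene model than the one used here. Another length would rescale its FPKM against the pseudocount, and with a pseudocount of 1 the BMP4 differences were 2.51 over bFGF/EGF and 1.95 over bFGF/BMP4.

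Olfml2a and Olfml2b, known as photomedins, are secreted proteins that bind chondroitin sulfate and heparin, and both were highest with bFGF/EGF. Olfml2b (ENSMUSG00000038463, chromosome 1, 170471963 to 170510358, plus strand) had FPKM of 5.51, 5.99 and 5.63 in the bFGF/EGF, 0.442, 0.548 and 0.593 in the bFGF/BMP4 and 2.37, 1.56 and 0.842 in the BMP4 libraries. The 3 groups did not overlap. The log2 fold changes were -3.22 (bFGF/BMP4 over bFGF/EGF), -1.89 (BMP4 over bFGF/EGF) and 1.33 (BMP4 over bFGF/BMP4), with a standard error of 0.31. The BMP4 libraries spread widely, and without BMP4 replicate 1 the last of these was 1.00. Its nearest genes in pattern were Flnc (0.25), the pseudogene Sertad4b-ps (0.27) and Crmp1 (0.28), which averaged 27.3, 2.29 and 7.25 FPKM and encodes a protein of growing axons.

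Olfml2a (ENSMUSG00000046618, chromosome 2, 38821944 to 38853786, plus strand) had 31, 28 and 25 fragments in the bFGF/EGF libraries, 3, 1 and 0 in the bFGF/BMP4 libraries and 6, 5 and 0 in the BMP4 libraries. It was at least 8.54-fold lower with bFGF/BMP4 than with bFGF/EGF. With BMP4 it was lower than with bFGF/EGF by a log2 fold change of -1.54 ± 0.38 (SE), which was -0.32 with a pseudocount of 1 and -2.78 with fragment numbers scaled to the library total. The day 6 groups could not be separated at this depth. It passed the filter on low values only through its level in the bFGF/EGF libraries, at 0.254 to 0.327 FPKM. The nearest genes in pattern were Rnf225 (0.14), Mboat1 (0.16) and Gm29502 (0.16).

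Olfml3 (ENSMUSG00000027848, chromosome 3, 103629538 to 103645322, minus strand) encodes a secreted scaffold that brings BMP1-class proteases to the BMP antagonist chordin, and in brain it is known as a gene of microglia. Its FPKM was 1.44, 1.49 and 1.31 in the bFGF/EGF, 0.445, 0.402 and 0.486 in the bFGF/BMP4 and 2.17, 3.31 and 2.49 in the BMP4 libraries. The 3 groups did not overlap, with the bFGF/BMP4 libraries lowest. The log2 fold changes were -1.48 (bFGF/BMP4 over bFGF/EGF), 0.84 (BMP4 over bFGF/EGF) and 2.32 (BMP4 over bFGF/BMP4), each with a standard error of 0.21. Of 11 microglia markers, 4 (Itgam, Siglech, C1qa and C1qb) were at 0 in every library and 6 in all had at most 3 fragments in every library. Of the 3 that passed the filter, 1 rose and none fell by limma from bFGF/BMP4 to BMP4, beside 8.41% and 5.14% of all genes. From bFGF/EGF, 1 rose and 1 fell in each day 6 group, beside 16.5% and 14.1% of all genes (bFGF/BMP4) and 21.3% and 15.4% (BMP4). The summed FPKM of this list was 7.32 to 7.98, 8.38 to 11.1 and 9.28 to 12.2 in the 3 groups, most of it from a single gene. The nearest genes in pattern were Cfap300 (0.15), Ctxn1 (0.18) and Pkp2 (0.24), and Cfap300, a gene of ciliary dynein assembly, averaged 3.94, 1.54 and 7.99 FPKM. The summed FPKM of the 7 ependymal markers, of which 2 were at 0 in every library, was 7.22 to 12.03 with bFGF/EGF, 10.8 to 11.8 with bFGF/BMP4 and 56.7 to 66.6 with BMP4. Most of that sum came from a single gene in each group. Of the 4 ependymal markers that passed the filter, all 4 rose by limma from bFGF/BMP4 to BMP4, beside 8.41% of all genes. The same 4 rose from bFGF/EGF to BMP4, beside 21.3% of all genes. From bFGF/EGF to bFGF/BMP4, none rose and 1 fell, beside 16.5% and 14.1% of all genes. The part of this list's cells in the Olfml3 level was not tested.

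**Figure D3:**
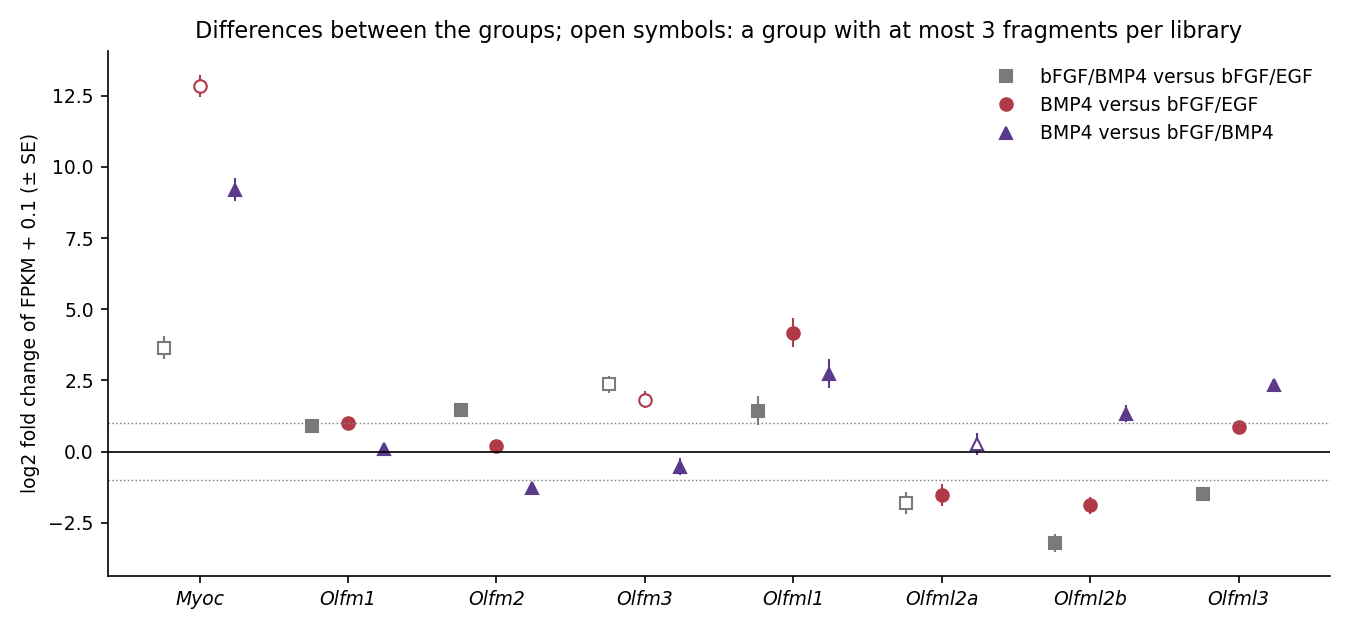
Log2 fold changes of FPKM + 0.1 of the 8 members in the 3 comparisons, with the standard error of the limma fit as bars and dotted lines at a 2-fold difference. Open symbols mark a comparison with a group not detected, where the fitted value depends on the pseudocount, and Myoc stands highest in all 3 comparisons.

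A member was counted as separated in a comparison when all 3 libraries of a group lay on the same side of the other 3 and the fold was at least 2. Between bFGF/BMP4 and bFGF/EGF, 3 members were higher (Myoc, Olfm2 and Olfm3) and 3 lower (Olfml2a, Olfml2b and Olfml3), where 16.9% and 14.4% of all genes tested met the same rule (31.3% in either direction). Between BMP4 and bFGF/EGF, 3 were higher (Myoc, Olfm3 and Olfml1) and 2 lower (Olfml2a and Olfml2b), beside 21.4% and 15.5% of all genes (36.9% together). Between BMP4 and bFGF/BMP4, 4 were higher (Myoc, Olfml1, Olfml2b and Olfml3) and 1 was lower (Olfm2), beside 9.32% and 6.08% of all genes (15.4% together). Nothing is read from these counts, since the members were proposed with these contrasts known. The first 2 comparisons share the bFGF/EGF libraries and the last 2 the BMP4 libraries.

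**Figure D4:**
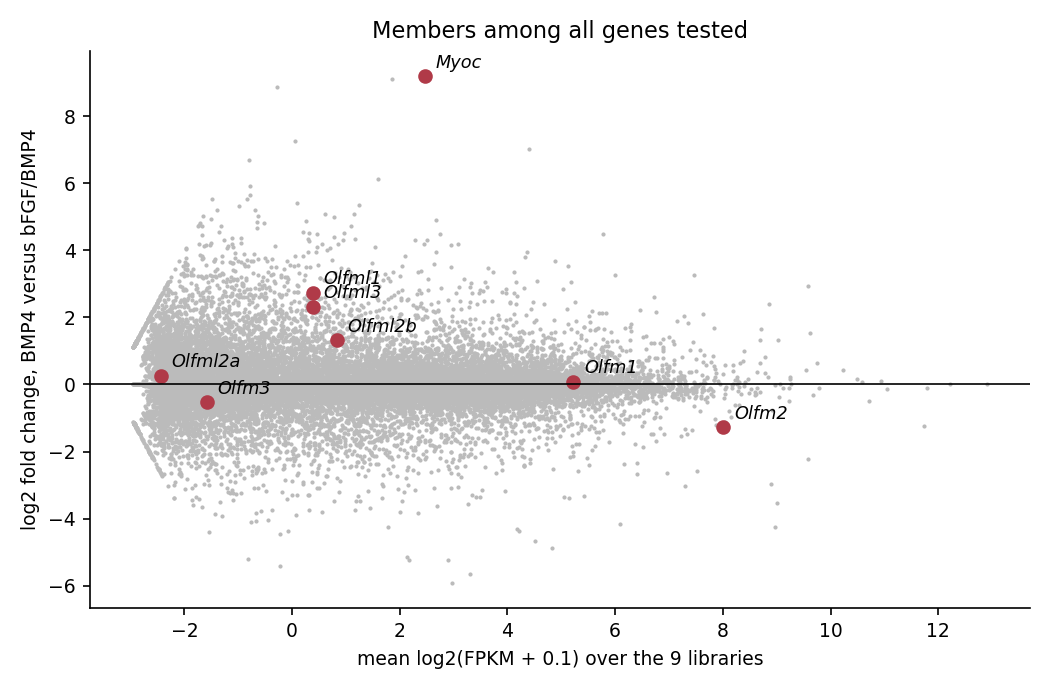
Log2 fold change of BMP4 over bFGF/BMP4 for all 20207 genes tested (grey) and the 8 members (red) against the mean log2(FPKM + 0.1) over the 9 libraries. Myoc lies at 9.20, the highest value on this scale by less than its standard error, while Olfm2 lies at -1.28 among the most abundant genes.

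The order of the members changed between the groups. With bFGF/EGF it was Olfm2, Olfm1, Olfml2b, Olfml3, Olfml1, Olfml2a, Olfm3 and Myoc. There the range of Olfml1 overlapped those of Olfml2a and Myoc, and the ranges of Olfm3 and Myoc overlapped. With bFGF/BMP4, Olfm2 and Olfm1 stood first and second, and from Myoc through Olfml1, Olfm3 and Olfml2b to Olfml3 each range overlapped the next. With BMP4 the order was Myoc, Olfm2, Olfm1, Olfml1, Olfml3, Olfml2b, Olfm3 and Olfml2a, and only the ranges of Olfml3 and Olfml2b overlapped. These levels are per gene length.

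Other genes of the family's surroundings were taken from a list of 34 olfactomedin-domain and partner genes (receptors, ligands, matrix proteins and proteases that family members are known to bind or act with), of which 31 passed the filter. The list was chosen with earlier results of these data known, so nothing is read from its counts. By limma with Benjamini-Hochberg adjustment over all genes (adjusted p at most 0.05 and at least 2-fold), 13 rose and 3 fell from bFGF/EGF to bFGF/BMP4, with a median log2 fold change of 0.65, where 16.5% and 14.1% of all genes were called (30.6% together) and the median of all genes was 0.06. Between bFGF/EGF and BMP4, 15 rose and 4 fell (median 0.78), beside 21.3% and 15.4% of all genes (36.6% together, median 0.10). Between bFGF/BMP4 and BMP4, 10 rose and 7 fell (median 0.05), beside 8.41% and 5.14% of all genes (13.5% together, median 0). This balance turned to 6 that rose and 7 that fell with a pseudocount of 1 or with a mean FPKM of at least 1 as the filter. It was 8 and 8 without BMP4 replicate 3. Among all genes, 890 rose and 559 fell with that pseudocount (of 20207) and 1012 and 788 with that filter (of 12947). Without that library, 1610 of all genes rose and 999 fell (of 20083).

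**Figure D5:**
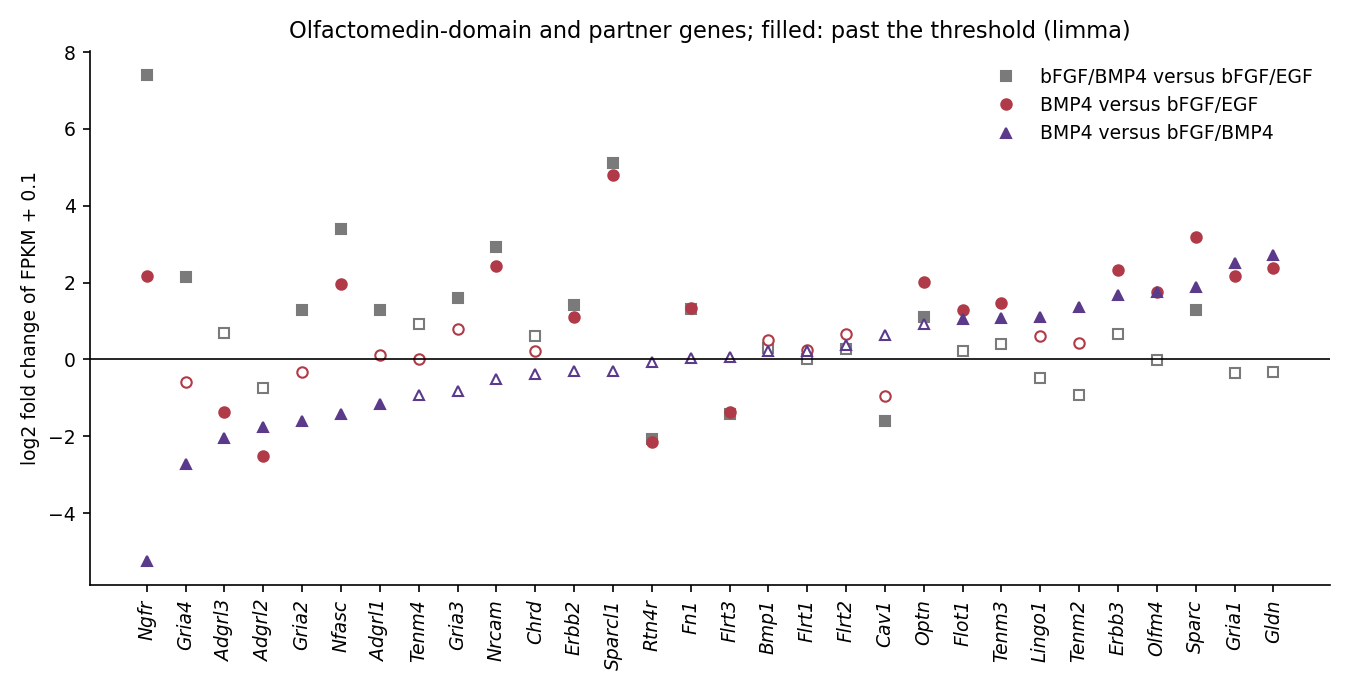
Log2 fold changes of the olfactomedin-domain and partner genes that passed the filter, without 1 that is not reported here, in the 3 comparisons, ordered by the change between bFGF/BMP4 and BMP4. Filled symbols passed the limma threshold, and Ngfr is highest from bFGF/EGF to bFGF/BMP4, at 7.40, and lowest from bFGF/BMP4 to BMP4, at -5.24.

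The largest change among them was that of Ngfr, the p75 neurotrophin receptor and a co-receptor of the Nogo receptor that Olfm1 binds. Ngfr averaged 0.396 ± 0.0416, 87.6 ± 29.8 and 2.16 ± 0.514 FPKM (SD, n = 3 each) with bFGF/EGF, bFGF/BMP4 and BMP4. It rose by 7.40 on the log2 scale with bFGF/BMP4 (limma adjusted p = 5.51e-08) and fell by 5.24 from there to BMP4 (limma adjusted p = 2.65e-06). The Nogo receptor itself, Rtn4r, fell from bFGF/EGF to both day 6 groups, by 2.08 (limma adjusted p = 0.00882) and by 2.16 (limma adjusted p = 0.00623). These falls rest on 25, 5 and 2 Rtn4r fragments in the bFGF/BMP4 libraries and 5, 9 and 8 in the BMP4 libraries.

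Of the glutamate receptor subunits, which noelins bind, the day 6 groups differed in opposite directions. Gria4 (-2.72, limma adjusted p = 0.000144) and Gria2 (-1.61, limma adjusted p = 0.00136) were lower with BMP4 than with bFGF/BMP4, as Olfm2 was, whereas Gria1 was higher (2.52, limma adjusted p = 1.80e-05). Gria3, at -0.82, did not reach 2-fold. Gria1, Gria2 and Rtn4r stand outside the naming rule and were chosen after their values were seen.

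Of the matrix proteins on the list, Sparc rose by 3.18 from bFGF/EGF to BMP4 (limma adjusted p = 3.30e-07), from 51.4 to 460 FPKM. Its relative Sparcl1 rose by 5.10 with bFGF/BMP4 (limma adjusted p = 2.51e-08) and by 4.79 with BMP4 (limma adjusted p = 2.22e-08). Sparcl1 is also among the astrocyte markers above.

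The list held 5 other genes with an olfactomedin domain. Olfm4 had at most 0.119 FPKM in the libraries with bFGF and 0.393 ± 0.0384 FPKM (SD, n = 3) with BMP4, with a log2 fold change over bFGF/BMP4 of 1.76 (limma adjusted p = 0.0127) that rests on 18 to 21 fragments per BMP4 library. Gldn, or gliomedin, which gathers sodium channels at nodes of Ranvier, was at least 17.1-fold higher with BMP4 than with bFGF/BMP4, at 0.718 ± 0.447 FPKM (SD, n = 3), from 86, 58 and 19 fragments in the BMP4 libraries. The latrophilins, adhesion receptors that carry the domain at the cell surface, were all lower with BMP4 than with bFGF/BMP4, with log2 fold changes of -1.17 for Adgrl1 (limma adjusted p = 0.000255), -1.76 for Adgrl2 (limma adjusted p = 0.000447) and -2.06 for Adgrl3 (limma adjusted p = 0.000126).

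Since glucocorticoids are known to raise myocilin in the eye, 12 glucocorticoid-induced genes were described in the same way, and 11 of them passed the filter. From bFGF/EGF to bFGF/BMP4, 8 rose and 1 fell by limma with Benjamini-Hochberg adjustment (median log2 fold change 1.34), beside 16.5% and 14.1% of all genes (median 0.06). From bFGF/EGF to BMP4, 4 rose (Pdk4, Tsc22d3, Sgk1 and Zbtb16) and 1 fell (median 0.73), beside 21.3% and 15.4% of all genes (median 0.10). Tsc22d3, Sgk1 and Zbtb16 were named after their values were seen. Between bFGF/BMP4 and BMP4, 1 rose and 3 fell (median -0.52), beside 8.41% and 5.14% of all genes (median 0). Pdk4, a kinase that restrains pyruvate oxidation, was the one that rose, from 2.29 to 9.89 FPKM (2.06, limma adjusted p = 0.000313), and it also rose by 5.01 from bFGF/EGF to BMP4 (limma adjusted p = 2.74e-07). Hif3a fell by 2.06 between bFGF/BMP4 and BMP4 (limma adjusted p = 0.00237) after a rise of 3.02 from bFGF/EGF to bFGF/BMP4 (limma adjusted p = 8.24e-05). Fkbp5, a co-chaperone of the glucocorticoid receptor and among its most regular targets, averaged 9.64 ± 1.06 FPKM with bFGF/EGF, 2.45 ± 0.609 with bFGF/BMP4 and 2.10 ± 1.21 with BMP4 (SD, n = 3 each). It fell by 2.29 from bFGF/EGF to BMP4 (limma adjusted p = 0.000354). This list too was chosen with earlier results of these data known, so nothing is read from its counts. A part of glucocorticoid signaling in the Myoc level was not tested.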

How the data were processed

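The authors deposited FPKM values for 9 libraries, a column each. According to the methods and the submitters' processing notes, reads were cleaned with fastp 0.19.7, aligned to mm39 with HISAT2 2.0.5 and counted with featureCounts 1.5.0-p3. The annotation release and strand setting are not given in the sources used here. The deposited FPKM values are not counts, so the main test was made on their log scale and a count model, limma-voom on rebuilt fragment numbers, was an alternative. Whole fragment numbers were rebuilt from the FPKM values for all 30860 genes above 0 (tolerance 0.05), and the constant by which each library had been scaled was 0.944 to 1.10 times its fragments on genes, relative to the mean. Of 55414 Ensembl identifiers, 54749 were found in GENCODE vM39 (GRCm39), and 290 other rows had none.

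Differential expression used limma 3.58.1 in R 4.3.3, with a trend, on log2(FPKM + 0.1) in the 20207 genes whose FPKM averaged at least 0.1, fitting all 9 libraries together. P-values were adjusted by Benjamini-Hochberg, and a call needed an adjusted p of at most 0.05 and a fold of at least 2. Tables and figures used Python 3.11.15, pandas 2.3.3, numpy 2.4.6 and matplotlib 3.10.9. The fit was tested on simulated data. Members and lists were chosen with earlier results of these data known. Named were all members, the other 5 olfactomedin-domain genes, the 3 partner genes and 2 glucocorticoid-induced genes with the largest called change in each comparison, and the genes nearest in pattern (5 for Myoc, 3 for each other member). The alternatives were another pseudocount (1), another low-value filter (none, or FPKM averaging at least 1), median-ratio scaling, rebuilt fragment numbers scaled to the library total, limma-voom on those numbers, the replicate number as a block, fits restricted to the groups compared, other fold thresholds and leaving out each library. Results for 3 genes that this rule, a marker list or an overlap would name are not reported here, though the counts and sums include those on a list. Protein sequences were not used here.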

Additional observations from a re-analysis of the deposited data

How the results depend on the processing

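No member's own difference changed direction under any of the alternatives run. The partner genes called between BMP4 and bFGF/BMP4, 10 higher and 7 lower, became 6 and 7 with a pseudocount of 1 or a mean FPKM of at least 1, and 8 and 8 without BMP4 replicate 3. With a pseudocount of 1, 3 members were separated between bFGF/BMP4 and bFGF/EGF and 3 between BMP4 and bFGF/EGF. In the latter comparison 12 olfactomedin-domain and partner genes were then called. Among all 20207 genes tested, 2326 rose and 2038 fell in it, against 4297 and 3103 with the pseudocount of 0.1. Myoc was then higher by 8.51 (log2) with BMP4 than with bFGF/BMP4, since a larger pseudocount shrinks the folds of rare genes. With no fold threshold, 9 glucocorticoid-induced genes were called between BMP4 and bFGF/EGF, and the share of all genes without that threshold was not computed. The other 152 of 157 alternative values of these results stayed close to those reported, where a count was judged by its total alone. The partner gene counts between BMP4 and bFGF/BMP4 given above, whose balance of rises and falls changed, are therefore among these 152. Of 189 alternative values of single members, 16 moved, under a pseudocount of 1 or with fragment numbers scaled to the library total, for Olfm3, Olfml1, Olfml2a, Olfml2b and Olfml3. Over bFGF/EGF, a pseudocount of 1 gave 0.60 (bFGF/BMP4) and 0.40 (BMP4) for Olfm3, -0.36 and -0.32 for Olfml2a, -2.14 for Olfml2b and -0.74 for Olfml3 (both bFGF/BMP4). Between BMP4 and bFGF/BMP4 it gave 1.33 for Olfml3 and -0.20 for Olfm3. Scaled fragment numbers gave 3.51 and 2.91 for Olfm3 and -3.44 and -2.78 for Olfml2a over bFGF/EGF.

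With each library left out in turn, 6 to 7, 5 to 6 and 5 members were separated in the 3 comparisons. The Myoc bounds ran from 12.6 to 21.0 and from 8072 to 12960, and its log2 fold change over bFGF/BMP4 from 8.83 to 9.57. Correlations of same-numbered libraries' deviations from their group means ran from -0.084 to 0.125. Same-numbered libraries thus shared no strong deviation, which cannot decide whether the samples were paired. With the replicate number as a block, 16, 19 and 16 partner genes and 9, 5 and 5 glucocorticoid-induced genes were called, against 16, 19 and 17 and 9, 5 and 4 without it. Over all genes, the block gave 3284 rises and 2843 falls, 4282 and 3101, and 1616 and 996. Without it these were 3327 and 2847, 4297 and 3103, and 1699 and 1039. Depth limits Olfm3 and Olfml2a, with at most 51 and 31 fragments in a library.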

Other observations

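Within the BMP4 group the members differed in spread. The standard deviation was 48.5% of the mean for Myoc and 48.05% for Olfml2b, against 5.59% for Olfm1, 7.95% for Olfml1, 8.22% for Olfm2, 10.6% for Olfm3 and 22.1% for Olfml3 (n = 3 each). Olfml2a, with 6, 5 and 0 fragments, stood at 87.6%. Myoc and Olfml2b were both highest in BMP4 replicate 1, with ratios of the highest to the lowest library of 2.27 and 2.81. Olfm3 and Olfml2a were also highest there, whereas Olfm1, Olfm2 and Olfml3 were lowest there. Within the bFGF/EGF group, Olfml1 had the widest spread of the members detected there, with a highest-to-lowest ratio of 8.83 that rests on 2 to 17 fragments.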
